A study of Mus musculus with 4 samples.

Results

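Genes that act on or answer to the ERK kinase pathway were followed in PDGFRb+ stromal cells of the adult mouse intestine, namely Etv1, Etv4, Etv5, Spry1, Spry2, Spry4, Spred1, Spred2, Dusp4 and Dusp6. They were taken by name, whatever their level, as 10 of 18619 genes, and were described across stromal cell classes set by marker genes and across the level of immediate early genes (IEGs). All values came from 1 library of 4108 cells, labelled LATS1/2 KO and sampled 1 week after induction (1w). The cells were C57BL/6J, carried PDGFRb-CreERT2, the Tomato reporter and the Lats1f/f and Lats2 f/f alleles, and were sorted by FACS. The deletion is limited to cells in which the Pdgfrb promoter drives the recombinase. Lats1 was read at 14.2 CPM and Lats2 at 53.5 CPM (UMIs per 1000000), but the library counts 3' ends and the deleted part of each gene was not located here, so these levels do not check the deletion. The study also had 2 wild type libraries and 1 LATS1/2 KO library at 2 weeks, which were not analysed here, so no value below compares knockout with wild type.

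Receptor tyrosine kinases pass signals from growth factors through RAS, RAF and MEK to the kinase ERK. Within minutes ERK activity raises IEGs such as Fos and Egr1. Somewhat later it raises the ETS factors Etv1, Etv4 and Etv5, and a set of inhibitors that close the loop. Sprouty proteins (Spry1, Spry2, Spry4) and the related Spred proteins (Spred1, Spred2) act between the receptor and RAF, and the phosphatases Dusp4 and Dusp6 remove the activating phosphates from ERK itself. In the intestine, fibroblasts under the epithelium and inside the villi make growth factors and BMP proteins that pattern the epithelium. LATS1 and LATS2 restrain YAP and TAZ, co-activators that reach DNA through TEAD factors.

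The RefSeq table of promoters (GRCm38.p6) held windows for 7 of the 10 members, 9 windows in all. In the 250 bases before each start, 5 motifs were searched on both strands: the TEAD motif GGAATG, the ETS motif CCGGAAGT (which shares GGAA with it), the AP-1 motif TGANTCA, the CRE TGACGTCA and the CArG box of SRF. A TEAD match was found in 1 window each of Etv1 and Spry1, and the other 7 windows held none of the motifs. Over all 32851 windows the TEAD letters were present in 12.6%, the ETS letters in 2.88%, the AP-1 letters in 6.75%, the CRE in 1.55% and the CArG box in 1.47%. The windows of Etv1 (chr12:38779832-38780081, plus strand), Spry1 (chr3:37639697-37639946, plus strand) and Dusp6 (chr10:99262981-99263230, plus strand) are shown because these genes differ between the classes below. Etv4, Spry4 and Dusp4 had no window. Capitals mark GGAATG, which begins 78 bases before the start of Etv1 and 208 bases before that of Spry1.
Etv1: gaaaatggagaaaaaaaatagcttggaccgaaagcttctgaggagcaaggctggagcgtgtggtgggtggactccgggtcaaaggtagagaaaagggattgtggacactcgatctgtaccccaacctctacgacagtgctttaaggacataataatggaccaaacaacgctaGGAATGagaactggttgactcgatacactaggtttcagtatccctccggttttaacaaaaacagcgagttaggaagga
Spry1: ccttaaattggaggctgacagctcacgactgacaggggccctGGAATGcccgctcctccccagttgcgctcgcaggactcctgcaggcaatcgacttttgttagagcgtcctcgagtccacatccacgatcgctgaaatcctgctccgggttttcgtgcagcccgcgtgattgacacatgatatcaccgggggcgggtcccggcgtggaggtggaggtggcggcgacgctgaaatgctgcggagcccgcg
Dusp6: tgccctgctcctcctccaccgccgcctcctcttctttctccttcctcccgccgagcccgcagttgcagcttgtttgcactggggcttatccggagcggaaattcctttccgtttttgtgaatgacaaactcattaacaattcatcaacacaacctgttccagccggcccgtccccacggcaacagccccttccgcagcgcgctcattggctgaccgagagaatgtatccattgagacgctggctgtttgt
The Etv1 window is 1 of 2 for that gene and lies downstream of the first base of the annotated gene (38779380), before a later start. A match in these letters is a description of the window, and no binding was measured.

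In the library, 46054627 UMIs (unique molecular identifiers, each standing for 1 captured transcript) were read, with a median of 10726 per cell. Levels are a gene's UMIs for every 1000000 UMIs in the class (CPM), with exact 95% Poisson intervals in parentheses. Because there was 1 library there is no replicate spread and no test, and all intervals cover counting error only. Clustering without the members, the pathway genes or the IEGs gave 7 clusters. Of these, 5 carried the markers of a class that the study had described. They were FB4-like cells (690 cells; Ackr4, Cilp and Cd81 among the leading genes), FB5-like cells (205; Sox6 and Wif1, with Bmp5, Bmp7 and Pdgfra also highest there and Foxl1 highest in the SMC-like cells), smooth muscle or SMC-like cells (76; Cnn1, Actg2), mural or MC-like cells (69; all 6 mural markers highest, but Ano1 of interstitial cells also among the leading genes) and vFB3-like villus fibroblasts (45; Tacr1, P2rx1). The 2 largest clusters, cluster 1 (1641 cells) and cluster 2 (1382 cells), had the highest Adamdec1, at 4975 and 4475 CPM. SMC-like cells followed at 4237 CPM, with a UMI of this villus fibroblast marker in 100% of them. The other markers of villus fibroblasts 1 and 2 were highest in FB4-like cells, so both clusters were left without a name. In FB5-like cells, genes noted after their levels were seen included Kcnj8 and Abcc9, channel subunits also known from pericytes, at 598 and 271 CPM against 56.3 and 40.5 CPM in MC-like cells. Myh11 of smooth muscle was found in 79.5% of FB5-like cells, at 218 CPM against 2232 CPM in SMC-like cells. The 6 mural markers summed to 103 CPM in FB5-like and 4304 CPM in MC-like cells, so the name FB5-like rests on the FB5 markers alone. Of 7 YAP/TAZ targets (Cyr61, Ctgf, Amotl2, Ajuba, Ankrd1, Axl and Lats2, the last itself a targeted gene), the summed level reached 1093 CPM in cluster 2, against 615 CPM in cluster 1. Cyr61 (525 against 246 CPM) and Amotl2 (236 against 63.7 CPM) made up most of the gap, Axl ran the other way (154 against 225 CPM), and Ankrd1 had 0 UMIs in both. Cluster 2 also had the lower sum of 7 IEGs (Fos, Fosb, Jun, Junb, Egr1, Atf3, Ier2), at 2966 against 4578 CPM. The authors had removed immune and endothelial cells. Of 4 immune markers Cd3e was at 0, and the list summed to between 6.90 CPM (FB4-like) and 54.8 CPM (FB5-like), of which Lyz2 gave most. Of 4 endothelial markers Pecam1 was at 0, and the others had 61 UMIs in the library, from 0 CPM in SMC-like and vFB3-like to 15.8 CPM in MC-like cells. Of 4 epithelial markers Krt8 and Vil1 were at 0 and the rest had 8 UMIs, while Msln, 1 of 2 mesothelial markers, was at 0 and the other had 2 UMIs. The 4 glial markers had 178 UMIs, from 1.76 CPM in MC-like to 10.2 CPM in FB4-like cells. The UMIs of Y-linked genes in cells rich in Xist put RNA from other cells at up to 8.64% of the library level of a gene.

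Etv1, Spry4 and Dusp6 were highest in FB5-like cells, the Pdgfra-high class, which had the second lowest IEG level. In all, 7 of the 10 members were highest there, and of the 8 members with at least 100 UMIs it was 6, where 16.3% of 11467 genes were highest in that class. SMC-like cells held the lowest level of 4 of the 8, where 17.9% of the 11467 genes were lowest in that class. Their IEG sum, at 3531 CPM, lay between those of clusters 2 and 1. A gene was counted as higher or lower where the ratio passed 1.5 in either direction and its 95% interval lay on the same side of 1. By this rule 5 of 8 members (Etv1, Etv5, Spry1, Spry4, Dusp6) were higher in FB5-like cells than in all other cells, where 11.9% of all genes tested were, and 0 were lower, where 15.3% of all genes were. The median ratio over the 8 members was 1.89, against 1.01 over all genes tested. Mitochondrial UMIs differed as well, with a median of 5.76% in FB5-like cells against 4.97% in cluster 1, 4.84% in cluster 2, 4.22% in FB4-like, 5.35% in vFB3-like, 5.65% in MC-like and 5.96% in SMC-like cells, the highest. In the 38 FB5-like cells with at most 5%, 6 of 8 members were higher than in the other cells under that limit, where 11.2% of all genes were.

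**Figure D1:**
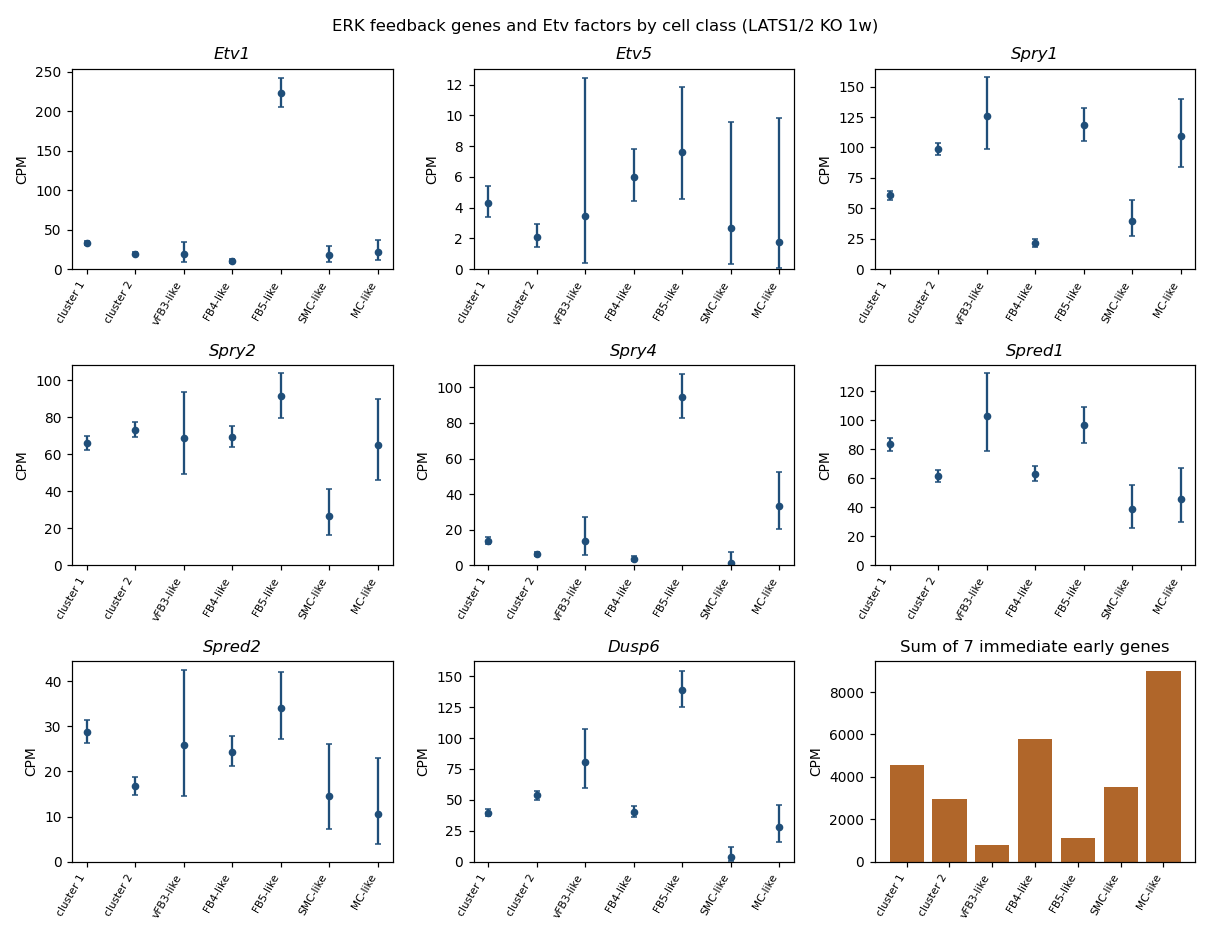
Level of 8 members in each class (y axis, CPM, linear from 0; points with exact 95% Poisson intervals), and in the last panel the summed level of 7 immediate early genes as bars. Etv1 (223 CPM), Spry4 (94.4 CPM) and Dusp6 (139 CPM) stand out in FB5-like cells, whose IEG sum was 1098 CPM, while the MC-like cells with the highest IEG sum (9009 CPM) do not stand out for Etv1 or Dusp6. Their Spry4 (33.4 CPM) was above that of every class but FB5-like.

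Etv1 (mm10 chr12:38779380-38870484), an ETS family activator, stood at 223 CPM (205–243) in FB5-like cells. Cluster 1 followed at 32.6 CPM (29.9–35.4), MC-like cells at 21.1, cluster 2 at 19.6, vFB3-like cells at 18.9, SMC-like cells at 17.3 and FB4-like cells at 10.1. FB5-like cells were 6.85-fold above cluster 1 (95% interval 6.08–7.72), whereas no later pair of neighbours in this order differed beyond its interval. The MC-like, vFB3-like and SMC-like levels in that order rest on 12, 11 and 13 UMIs. Classes further apart did differ, with cluster 2 below cluster 1 and FB4-like cells at 0.258-fold (0.205–0.321) of all other cells. FB5-like cells gave 36.1% of all Etv1 UMIs and 5.43% of all UMIs. Etv1 was detected in 184 of 205 FB5-like cells, 89.8% (exact binomial 84.8–93.5). Cells with fewer than 5000 UMIs were left out of thinning, and in the 200 thinned to 5000 UMIs the share was 68.0% (61.1–74.4). In cluster 1 the same shares were 24.6% and, in 1614 thinned cells, 14.4%, at a median depth of 9671 UMIs against 11829. Etv5, a second factor of the group, was low everywhere, from 1.76 CPM in MC-like to 7.60 CPM (4.58–11.9) in FB5-like cells, the latter from 19 UMIs. Etv4 had 9 UMIs in the library, 6 of them in FB5-like cells.

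Spry4 (chr18:38586247-38601415, minus strand), a Sprouty inhibitor of RAS to ERK signalling, varied widely across the classes. Its level was 94.4 CPM (82.8–107) in FB5-like cells, 33.4 (20.1–52.2) in MC-like cells, 13.8 (12.1–15.7) in cluster 1 and 13.8 (5.94–27.1) in the vFB3-like class. Cluster 2 followed at 6.25 (5.10–7.59) and FB4-like cells at 3.51 (2.37–5.01). The SMC-like level, 1.33 CPM, came from 1 UMI and was near the 1.18 CPM that RNA from other cells could give. Both steps at the top of this order, from FB5-like to MC-like and from MC-like to cluster 1, were larger than their intervals (2.82-fold, 1.77–4.78, and 2.42-fold, 1.43–3.86). Against all other cells Spry4 was 10.5-fold higher in FB5-like cells (8.89–12.4). It was found in 55.1% of FB5-like cells and in 11.8% of cluster 1 cells before thinning. In the 200 and 1614 of these cells that could be thinned to 5000 UMIs, the shares were 33.5% and 6.51%.

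Dusp6 (chr10:99263231-99267489, plus strand), the cytoplasmic phosphatase of ERK, ran from 139 CPM (125–155) in FB5-like and 80.8 (59.4–108) in vFB3-like cells down to 28.2 in MC-like cells. SMC-like cells had 3 Dusp6 UMIs, a level of 3.99 CPM that was below the 4.31 CPM that RNA from other cells could give, so that no Dusp6 was detectable there above background. Against all other cells it was 3.11-fold higher in FB5-like cells (2.77–3.49). Dusp4, the nuclear phosphatase, had 26 UMIs in the whole library and 0 in FB5-like cells, which allows up to 1.48 CPM.

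Spry1 (chr3:37639947-37644598, plus strand) was ordered in another way. Its level was 126 CPM (98.4–158) in vFB3-like, 118 (105–132) in FB5-like and 109 (83.6–140) in MC-like cells. Next came cluster 2, with 98.3 (93.6–103), then cluster 1, with 60.5 (56.8–64.3). Lower still, it stood at 39.9 (26.9–56.9) in SMC-like and 21.4 (18.4–24.7) in FB4-like cells. The steps among the first 4 of these stayed within their intervals, and each step from cluster 2 downward was larger than its interval. Spry2 was the most even of the Sprouty genes, between 65.1 and 91.2 CPM in 6 classes and 26.6 CPM (16.2–41.0) in SMC-like cells. Spred1 ranged from 38.5 CPM (SMC-like) to 103 CPM (vFB3-like) and Spred2 from 10.6 CPM (MC-like) to 34.0 CPM (FB5-like).

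In SMC-like cells 6 of 8 members (Etv1, Spry1, Spry2, Spry4, Spred1, Dusp6) were lower than in all other cells, against 10.2% of all genes tested, and 0 were higher (9.92%). Their mitochondrial share (5.96%) and Adamdec1 level (4237 CPM) stand beside this count, and the part of either was not tested. MC-like cells, with the highest IEG sum, had Spry1 and Spry4 higher (11.7% of all genes) and Spred1, Spred2 and Dusp6 lower (9.8%). In vFB3-like cells Spry1 and Dusp6 were higher (12.4% of all genes) and 0 members lower (9.24%). FB4-like cells had Etv5 higher (6.26%) and Etv1, Spry1 and Spry4 lower (12.7%). Etv5 there rested on the columns marked M, at 9.24 against 3.54 CPM (2.61-fold, 1.66–4.04), while in columns marked F it was at 3.49 against 3.41 CPM (1.02-fold, 0.565–1.76). Cluster 2 had Spry1 higher (4.1%) and Etv1, Etv5, Spry4 and Spred2 lower (8.17%), and in cluster 1 no member was past the fold in either direction, where 4.57% of all genes were higher and 6.26% lower. Of the 13 calls in SMC-like, MC-like and vFB3-like cells, 3 (Spry2, Spred1 and Dusp6 in SMC-like cells) were also made in M and in F columns alone, and all 13 ratios lay on the same side of 1 in both. The M and F columns are parts of the same library and not replicates. MC-like and SMC-like cells were shallow, with medians of 6793 and 7910 UMIs, and vFB3-like cells deep, with 12888. Lyz2, an immune marker, was also highest in FB5-like cells, at 54.8 CPM, while Ptprc and Cd3e were at 0 there. Its part in these values was not tested.

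Genes around the pathway were compared between FB5-like and all other cells as well, where 11.9% of all genes were higher and 15.3% lower. Of the lists, ligands (2 of 15 higher), receptors (1 of 9) and nuclear targets (2 of 15) had shares of higher genes near that background. Among the 15 ligands tested, Fgf9 was at 52.0 CPM in FB5-like against 1.29 CPM in all other cells (40.5-fold, 29.4–56.4), and 52 of the other 56 Fgf9 UMIs were in FB4-like cells. Nrg1, a ligand of ERBB receptors, was the other higher ligand, at 24.8 against 6.08 CPM. In turn, 6 ligands were lower, with Pdgfc (0 of 171 UMIs), Fgf7 (0.052-fold) and Hbegf (0.086-fold) the lowest. Of 9 receptors tested 1 was higher, Pdgfra (1978 against 391 CPM), which had also served to name the class. Another 4 were lower, among them Fgfr2 at 11.2 against 113 CPM, Fgfr3 with 1 UMI and Fgfr4 with 0. Of 19 genes of the RAS to ERK cascade 1 was higher, Map2k1, which encodes MEK1 (38.0 against 23.6 CPM), and 1 lower, the scaffold Ksr1 (32.8 against 52.0 CPM). Other feedback genes split evenly, with 5 of 17 higher and 5 lower. Fgfrl1 (2.06-fold), Spred3 (1.96-fold) and Lrig1 (1.84-fold) led the higher ones, and Flrt3 (0 of 677 UMIs), Dusp5 (0.094-fold) and Lrig3 (0.337-fold) were the lowest. Among 15 nuclear targets, Ccnd1, the gene of cyclin D1, was at 229 against 46.5 CPM and Ets2 at 81.6 against 51.7 CPM, while 4 were lower, including Egr3 (0.120-fold), Egr2 (0.166-fold) and Ier3 (0.175-fold). Egr2, Egr3 and Ier3 respond early to ERK like the 7 IEGs, each of which was lower in FB5-like cells.

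Inside the FB5-like class, Dusp6 and Fgf9 were read in cells with and without a UMI of Etv1 or Spry4. Dusp6 stood at 142 CPM (127–159) in the 184 cells with an Etv1 UMI and at 108 CPM (69.0–160) in the 21 without one. Between cells with and without Spry4, Dusp6 was at 142 CPM (123–162) and 136 CPM (114–160), and Fgf9 at 45.0 CPM (34.9–57.1) and 62.4 CPM (47.9–79.8). All of these intervals overlapped, which in groups as small as 21 cells does not show that the levels were alike. Cells without a UMI of a gene were also the shallower ones, with a median of 9304 UMIs without Etv1 against 11911 with it.

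Whether the members follow the IEG level within a class was asked in the 4 classes with at least 150 cells. The cells of each were ordered by the share of their UMIs in the 7 IEGs and cut into 3 groups of equal cell number, IEG-low, IEG-middle and IEG-high. These are ranges of a continuous level, and 123, 102, 96 and 22 cells lay within 10% of a cut in cluster 1, cluster 2, FB4-like and FB5-like cells. The study states that IEG expression could come from cell dissociation, though it also detected Fosb in PDGFRb+ cells in tissue. The part of dissociation in the IEG level was not tested here. In cluster 1 the median IEG level was 249 CPM in IEG-low and 9404 CPM in IEG-high cells. Mitochondrial UMIs moved with it, from a median of 5.37% to 4.70%, and the median depth from 9428 to 9975 UMIs. Of the YAP/TAZ targets Cyr61 moved with it too, from 58.7 to 405 CPM in cluster 1 and from 108 to 1134 CPM in cluster 2, and it gave most of the change in their sum (400 to 787 CPM and 608 to 1778 CPM). In cluster 1 Amotl2 was also higher in IEG-high cells (1.53-fold, 1.32–1.79), Ctgf was lower (0.586-fold), and Lats2 (1.32-fold) and Axl (1.11-fold) stayed inside the fold. Their part in the values that follow was not tested.

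Spry4 was counted as higher in IEG-high than in IEG-low cells in cluster 1 and in FB5-like cells. In cluster 1 it was at 9.66 CPM in IEG-low and 16.5 CPM in IEG-high cells, a ratio of 1.71 (1.21–2.44). It was the 1 of 7 members tested that was higher, where 7.33% of all genes were. In FB5-like cells it was at 51.7 and 128 CPM (2.48-fold, 1.72–3.64), and Dusp6 at 110 and 170 CPM (1.55-fold, 1.18–2.04), so that 2 of 6 members were higher where 4.19% of all genes were. Spred2 in FB5-like cells had 17 UMIs in IEG-low and 43 in IEG-high cells (2.26-fold, 1.26–4.22), under the minimum for a count. In cluster 2 Spry4 had 17 UMIs in IEG-low and 58 in IEG-high cells (3.73-fold, 2.14–6.83), which together is under the minimum of 100 set for a count. There Spred2 was the 1 of 6 members higher (12.8 and 20.8 CPM, 1.63-fold, 1.20–2.23), against 10.2% of all genes. None of 5 members was higher in FB4-like cells, where 6.92% of all genes were. The Spry4 ratio in cluster 1 was 1.16 (0.735–1.84) in columns marked M and 2.94 (1.62–5.64) in columns marked F. In FB5-like cells with at most 5% mitochondrial UMIs, which left 12 and 13 cells, it was 1.66 (0.645–4.76). The Dusp6 ratio in FB5-like cells was 1.28 (0.983–1.66) with a wider list of IEGs, which ended its call, 1.32 (0.918–1.91) in F columns and 1.89 (1.26–2.86) in M columns.

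Spry1 in both large clusters and Etv1 in cluster 1 were lower in IEG-high cells, by less than the fold set for a count. Etv1 was at 40.7 CPM in IEG-low and 28.7 CPM in IEG-high cells of cluster 1 (ratio 0.706, 0.573–0.867). In cluster 2 it was at 20.4 and 17.6 CPM, and the interval of the ratio held 1 (0.860, 0.647–1.14). Spry1 was at 67.0 and 54.3 CPM in cluster 1 (0.810, 0.694–0.945) and at 102 and 86.3 CPM in cluster 2 (0.846, 0.747–0.958). Spred1 was level in both, with ratios of 0.929 (0.815–1.06) and 1.01 (0.865–1.17). No member was counted as lower in any of the 4 classes, where 3.06%, 3.09%, 2.46% and 1.59% of all genes were. Dusp1, a related phosphatase known to be raised by stress as well as by ERK, differed far more, by 7.69-fold in cluster 1, 5.85-fold in cluster 2, 4.22-fold in FB4-like and 1.29-fold (1.1–1.5) in FB5-like cells. Dusp1 is itself on the wider list of IEGs, so its ratio is not independent of the ordering of the cells.

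**Figure D2:**
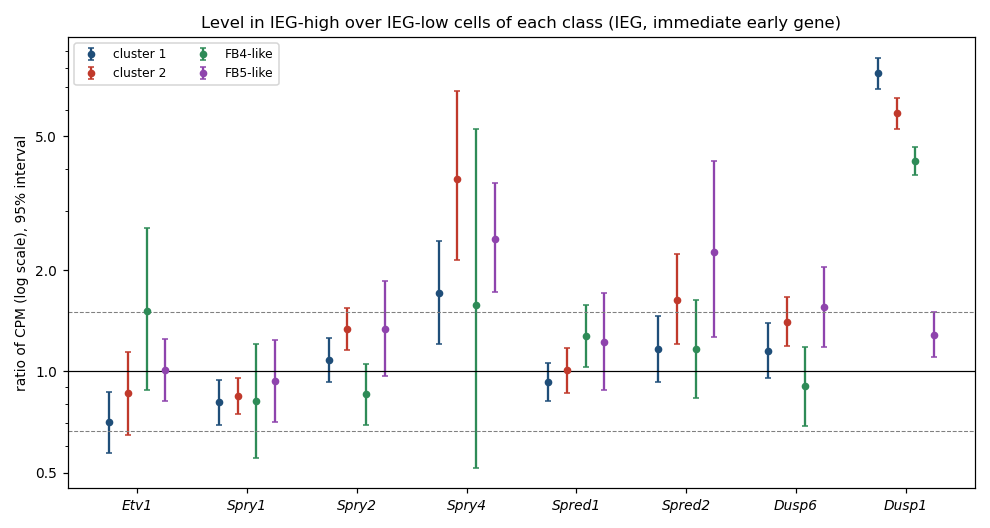
Ratio of the level in IEG-high to that in IEG-low cells (y axis, log scale; points with exact 95% intervals) for 7 members and Dusp1 in 4 classes; dashed lines mark 1.5-fold in either direction. Dusp1 lies at 7.69 in cluster 1 while the members there lie between 0.706 (Etv1) and 1.71 (Spry4). Dusp1 is itself on the wider list of IEGs.

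With clusters 1 and 2 pooled and cut into 10 equal groups by IEG level, Spry4 was at 4.04 CPM (2.21–6.78) in the lowest group and 16.1 CPM (12.0–21.2) in the highest. Spred2 was at 14.7 (11–19.3) and 29.6 CPM (23.9–36.3). Spry1 fell from 92.3 (82.5–103) to 56.4 CPM (48.3–65.4). Dusp6 (43.0 and 52.5 CPM), Spred1 (68.9 and 75.0 CPM) and Etv1 (24.8 and 27.7 CPM) had overlapping intervals at the ends. Since cluster 2 had fewer cells of high IEG level, its share of cells also changes from group to group.

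**Figure D3:**
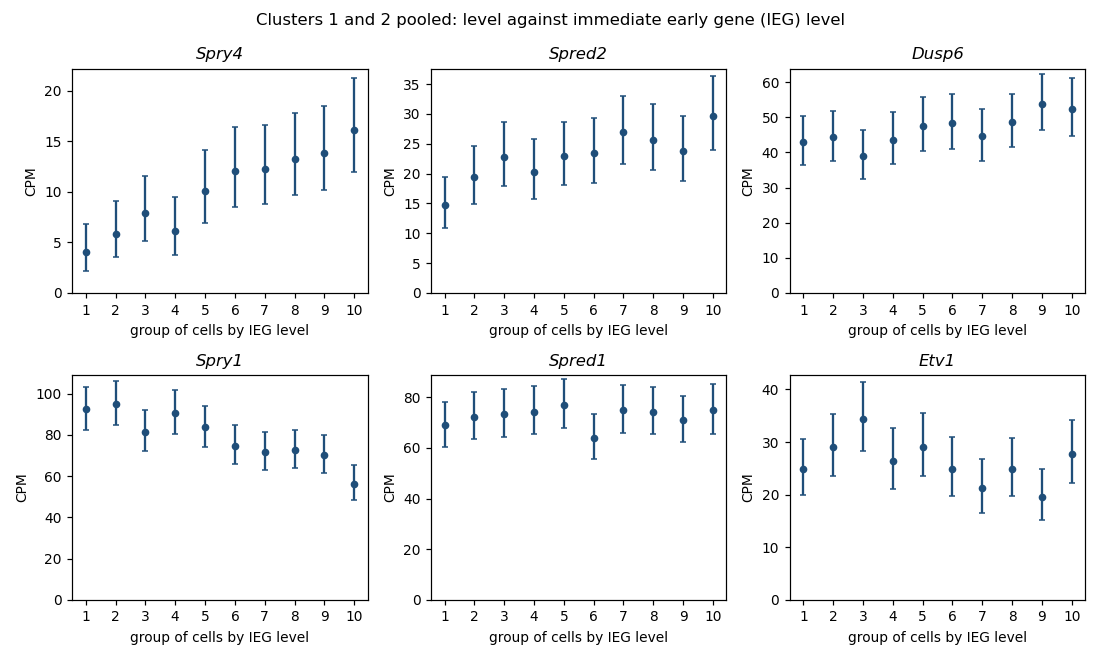
Level of 6 members (y axis, CPM, linear from 0; points with exact 95% Poisson intervals) in 10 equal groups of the pooled cells of clusters 1 and 2, ordered by IEG level (x axis, 1 lowest to 10 highest). Spry4 climbs from 4.04 to 16.1 CPM and Spry1 declines from 92.3 to 56.4 CPM, while Spred1 is at 68.9 and 75.0 CPM at the ends.

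In IEG-high cells 7.33% of all genes were higher in cluster 1, 10.2% in cluster 2 and 4.19% in FB5-like cells. Among the pathway lists, other feedback genes and nuclear targets held most of the genes that were higher in IEG-high cells of cluster 1. These were 5 of 11 other feedback genes, led by Dusp1, Flrt3 (2.37-fold) and Errfi1 (1.75-fold), the last an inhibitor of EGFR. They were joined by 6 of 14 nuclear targets, led by Egr3 (131 UMIs against 0), Ier3 (37.0-fold) and Egr2 (15.3-fold), and the receptors Egfr (1.70-fold) and Igf1r (1.57-fold). Dusp1, Ier3 and Egr2 are themselves on the wider list of IEGs, so they are not independent of the ordering of the cells. Igf1 (0.602-fold), Pdgfrb (0.645-fold) and Ccnd1 (0.556-fold) were lower. In cluster 2, 5 of 7 receptors were higher, led by Egfr (1.93-fold), Fgfr1 (1.63-fold) and Erbb2 (1.63-fold), with Errfi1 (2.66-fold) and Phlda1 (2.10-fold) among 4 of 9 feedback genes and 6 of 14 nuclear targets. There 2 of 10 ligands (Fgf7 and Areg) were higher too, and the nuclear target Ets1 was lower. FB4-like cells, where 6.92% of all genes were higher, had 0 of 6 receptors, 2 of 8 feedback genes (Dusp1 and Rasa1) and 2 of 6 nuclear targets (Ier3 and Mcl1) higher. Frs2 of the cascade (0.575-fold), the ligand Ereg and the nuclear target Ccnd1 were lower there, where 2.46% of all genes were. In FB5-like cells Errfi1 (2.28-fold) was the 1 of 3 feedback genes tested that was higher. Of 19 cascade genes, 0 were past the fold in cluster 1, where 7.33% of all genes were higher and 3.06% lower. In cluster 2, 1 of 19 (Ksr1) was higher, where 10.2% of all genes were, and 0 were lower (3.09%). With 19 genes, such counts do not set the cascade apart from all genes. In FB5-like cells only 7 of the 19 could be tested.

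Between the 2 large clusters the members split. Cluster 2 had 1 of 8 members higher than cluster 1, Spry1, where 4.74% of all genes were. It had 4 lower, Etv1, Etv5, Spry4 and Spred2, where 6.78% were. Spry1 was at 98.3 against 60.5 CPM (1.63-fold, 1.5–1.76). Spry4 was at 6.25 against 13.8 CPM (0.452-fold, 0.355–0.573), Etv1 at 19.6 against 32.6 CPM (0.600-fold, 0.521–0.690) and Spred2 at 16.7 against 28.8 CPM (0.580-fold, 0.499–0.675). Etv5 was at 2.08 against 4.29 CPM. Dusp6, at 53.6 against 39.6 CPM (1.36-fold, 1.22–1.5), Spry2 (1.11-fold) and Spred1 (0.738-fold) stayed inside the fold.

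Because the clusters differ in IEG level, they were also compared within 3 common ranges of it. In the lower range Etv1 and Spred2 were lower in cluster 2 (6.48% of all genes) and none higher (5.4%). In the middle range Spry1 and Dusp6 were higher (5.39%) and Etv1, Spry4, Spred1 and Spred2 lower (5.61%). In the upper range Spry1 was higher (5.03%) and Etv1 lower (4.83%). Spry1 lay just under 1.5-fold (1.30–1.72) in the lower range, at 1.63-fold (1.42–1.87) in the middle and at 1.62-fold (1.40–1.88) in the upper. Etv1 lay at 0.534-fold, 0.612-fold and 0.579-fold in the same order. The ranges were common but the cells in them were not matched: the median IEG level of clusters 1 and 2 was 199 and 120 CPM in the lower, 1902 and 1901 CPM in the middle and 8693 and 7890 CPM in the upper range. Spry4 was at 0.325-fold (0.191–0.540), 0.426-fold (0.266–0.664) and 0.701-fold (0.490–0.992), the first from 25 and 46 UMIs, which is under the minimum for a count. At a finer clustering, in which each cluster was matched to its largest piece, the piece of cluster 1 held 683 of its 1641 cells. There Spry1, Spry2 and Dusp6 were higher (7.99% of all genes) and Spred2 lower (4.15%), Etv1 and Spry4 were no longer counted, and Etv5 had too few UMIs to be tested.

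**Figure D4:**
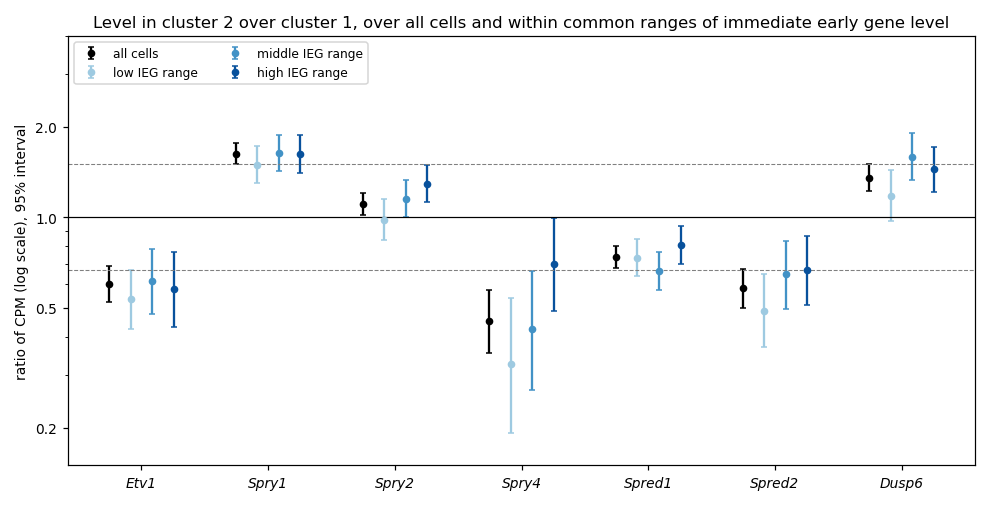
Ratio of the level in cluster 2 to that in cluster 1 (y axis, log scale; points with exact 95% intervals) for 7 members, over all cells and within 3 common ranges of IEG level; dashed lines mark 1.5-fold in either direction. Spry1 lies between just under 1.5 and 1.63 and Etv1 between 0.534 and 0.612 throughout.

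Around the members, cluster 2 had more Pdgfa (2.68-fold), Pdgfd (2.41-fold), Igf1 (1.63-fold) and Pdgfrb (1.65-fold) than cluster 1. It had less Fgf1 (0.217-fold), Nrg1 (0.475-fold), Fgf7 (0.567-fold), Fgfr3 (0.439-fold) and Pdgfra (0.559-fold). Of 16 other feedback genes 7 were lower, with Lrig1 (0.532-fold), Dusp14 (0.572-fold) and Errfi1 (0.579-fold) the lowest, and 0 higher. Egr2 (0.510-fold) was the 1 of 15 nuclear targets past the fold, and none of the 19 cascade genes was. Over all genes 4.74% were higher and 6.78% lower in cluster 2.

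Over 21 units (each of the 7 classes cut into 3 IEG groups, down to 15 cells in the vFB3-like class), the members' log2(CPM + 5) profiles were compared among themselves and with 3431 genes of at least 2000 UMIs. The units share 1 library, so these are descriptions. The most alike members were Dusp6 and Spry2 (Pearson r 0.87), Dusp6 and Spred1 (0.74) and Etv1 and Spry4 (0.70). The correlation with the summed IEGs ran from −0.42 for Spred1 to 0.15 for Spry4. Genes most like Etv1 were Lhfp (0.94), Tcf4 (0.88) and Cetn2 (0.85), and those most like Spry1 were Sept4 (0.93), Ube2e3 (0.91) and Adap2 (0.90). Genes with a profile like that of Spry4 included Cebpb (0.87) and Tspan3 (0.85), and Dusp6 was closest to Lama4 (0.90), Frmd6 (0.88) and Manf (0.87). Spry2 was closest, after Dusp6, to Lrp10 (0.84) and C1qtnf6 (0.82). Spred1 was like Ly6e (0.85) and Hsd17b11 (0.83), and Spred2 was closest to Cnpy3, Morf4l2 and Ppig (0.77 to 0.72).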

How the data were processed

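One FACS-sorted 10x 3' v3 library was analysed. Per the submitters' processing notes, the authors used Cell Ranger 3.0.2 (mm10) and Seurat 3.0.1. Cells with 1000 to 6000 genes and at most 7% mitochondrial UMIs were kept, immune and endothelial clusters were removed, and the deposited values are the natural log of 1 plus UMIs per 10000. UMI counts were read back, and 100% of 13789523 values above 0 were whole within 0.001 of the count, a check that is loose at high counts. Seurat 5.3.0 (2000 variable genes, of which 1942 were used, 30 components, resolution 0.2) gave the clusters. A cluster took a name where at least 3 markers of a list were highest there in at least 10% of its cells, and no other list had more markers in its top 10. That naming rule was written once the marker levels were known. Poisson, conditional binomial and Clopper-Pearson intervals (95%) came from scipy 1.17.1. The ratio script recovered known folds in simulated Poisson counts, the model its intervals assume, with no further spread between cells. Genes needed 100 UMIs in the cells compared. Named pathway genes are, per list and comparison, the 3 highest and 3 lowest past the fold, with Dusp1 shown beside the members; the genes named for likeness are the closest 3, of which some are not reported here. No doublets were removed beyond the authors' gene limit; 116 cells held both Xist and Y-linked UMIs. Columns marked M (1983 cells) and F (2125) shared 0 barcodes, and the labels name no animals. The study's methods divide cells according to whether Xist, a female transcript, was present. M and F columns are parts of 1 library and are not replicates. Members and lists were chosen with earlier results of these data known.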

Additional observations from a re-analysis of the deposited data

How the results depend on the processing

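No paired analysis was possible because only 1 library was analysed. No ratio past the fold changed direction: of 240 ratios of IEG-high to IEG-low cells 225 stayed inside the main interval and 15 did not, of 64 between clusters 2 and 1 it was 56 and 8, and of 72 for FB5-like cells 61 and 11. Of 20 shares of FB5-like cells with other thinning, 4 stayed inside. The cause of the changes that follow was not tested, although each subset has fewer UMIs. In cluster 1 the count of members higher in IEG-high cells was 0 at resolution 0.5, with at most 5% mitochondrial UMIs, in M columns, in F columns and with 4 groups in place of 3 (Spry4 was under the 100 UMI minimum in all but the last), and the count lower was 1 (Etv1) in M columns and with the wider IEG list. In cluster 2 the count higher was 0 in M columns (Spred2 under the minimum) and with the wider list, and the count lower was 1 (Etv1) at the 5% limit. In FB5-like cells no member reached the minimum at the 5% limit (12 and 13 cells), so no count was given there; the count higher was 0 of 3 members tested in F columns, 1 of 3 (Dusp6) in M columns and at 8000 to 14000 UMIs, with Spry4 under the minimum in these 3 settings (2.01-fold in F columns, 3.16-fold in M columns, 2.64-fold at 8000 to 14000 UMIs), and 1 of 6 (Spry4) with the wider list. Between clusters 2 and 1, 3 members were higher (7.99% of all genes) and 1 lower (4.15%) at resolution 0.5, and 2 (Spry4, Spred2) were lower in F columns (5.70%); Etv5 was under the minimum in both. FB5-like cells had 3 members higher (Etv1, Spry4, Dusp6) in F columns, where 12.2% of all genes were and Etv5 was under the minimum. With no minimum of UMIs, the genes past the fold numbered 1104 higher and 531 lower in cluster 1, 1415 and 497 in cluster 2, 881 and 350 in FB4-like and 443 and 208 in FB5-like cells, and 1113 lower in cluster 2 than 1. Against all other cells, Spry4 in FB5-like cells was 7.33-fold at the 5% limit (38 cells), 8.25-fold in M and 12.9-fold in F columns. Depth limits Etv4, Etv5 and Dusp4 in every class, and most members in the classes of 76 cells or fewer. The M and F values of classes other than FB5-like were added after the data were seen.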
